A study of Mus musculus with 12 samples.

Results

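Neuron libraries from the cortex of dKO (double knockout) and ctl (control) mice were compared across genes and, within each gene, across transcripts. These are 6 of the 12 libraries of the study, 3 for each group, chosen by their labels. The other 6 hold oligodendrocyte precursor cells (OPCs) of the same groups and are not used here. The dKO mice carried NG2-CreERT2 together with 2 pairs of floxed alleles. Cav1.3 fl/fl removes exon 2 of Cacna1d on recombination, and Cav1.2 fl/fl removes 2 exons of Cacna1c, numbers 14 and 15. By the methods, tamoxifen (100 mg/kg) was given on postnatal days 7 and 8 (P7 and P8). The ctl mice are labelled WT. Whether they carried Cre, the floxed alleles or tamoxifen, and the age at which the cortex was taken, is not given in the sources used here. Recombination is directed to NG2-expressing cells, so the neurons were not themselves the target of the deletion. Each library pooled 2 mice, so 6 mice stood behind each group. The neuron fraction is what was left after magnetic beads carrying antibodies to O4, CD11b, CD31 and ACSA-2 were used to take out astrocytes, endothelial cells, microglia and oligodendrocyte lineage cells. The authors deposited an estimated count for each RefSeq transcript, 66298 transcripts of 17918 genes. The sum over transcripts lay between 15052901 and 16344585 per library.

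Cav1.2 and Cav1.3 are the pore subunits of L-type voltage-gated calcium channels, through which calcium enters a cell when its membrane depolarises. OPCs contact neuronal cell bodies and respond to their activity. The study used mice whose OPCs lose these channels, and form fewer such contacts, to examine lysosome release by neurons. A gene can respond in its total output or in the mixture of transcripts it makes from alternative starts, exons and ends. A sum over transcripts shows only the first.

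The label was checked against marker genes before any comparison. Markers of neurons were present but held a small share of the TPM, a level corrected for length and depth. Summed over 9 neuron markers, the level was 522, 721 and 649 TPM in the ctl libraries and 920, 917 and 738 TPM in the dKO libraries. Of the given markers, Dcx, a microtubule-associated protein of migrating young neurons, had 36.4, 57.4 and 59.0 TPM in ctl and 55.9, 94.1 and 58.7 TPM in dKO. Markers of immature or migrating neurons summed to 3305, 4601 and 4176 TPM in ctl and 4925, 5637 and 5252 TPM in dKO, and the groups did not overlap. The marker Stmn1 held most of each sum, with 2373, 3145 and 2831 TPM in ctl and 3479, 3675 and 3731 TPM in dKO. Not every marker of the list separated the groups, and Dcx overlapped.

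Summed TPM was far higher for markers of the endothelium, the choroid plexus and red blood cells than for either neuronal list, while microglia, astrocyte and OPC markers lay below those of immature neurons. Endothelial markers summed to 27459, 23066 and 24302 TPM in ctl and 10437, 21065 and 21652 TPM in dKO, so dKO replicate 1 lay lowest. Markers of the choroid plexus, the epithelium that makes cerebrospinal fluid, summed to 26860, 24328 and 12468 TPM in ctl and 67678, 25411 and 42622 TPM in dKO. Nearly all of this was Ttr, with 26471, 23895 and 12261 TPM in ctl and 66736, 25005 and 41853 TPM in dKO. The next highest, Folr1, had at most 397 TPM in any library, below the summed level of either neuronal list. The 6 of 6 choroid plexus markers had an unadjusted p under 0.05 in the gene test described below, all higher in dKO, with a median log2 change of 1.15. With dKO replicate 1 left out, 2 of the 6 passed with a median of 0.68, and with ctl replicate 3 left out, 2 passed with a median of 0.93. Haemoglobin and other red blood cell genes ranged from 5.28% to 20.7% of all TPM in ctl and from 8.55% to 27.0% in dKO. Microglia markers summed to 2466, 521 and 980 TPM in ctl and 413, 1326 and 749 TPM in dKO. Thus ctl replicate 1 stood apart by high microglia, astrocyte and oligodendrocyte and low red blood cell and immature neuron markers, and dKO replicate 1 by low endothelial and high choroid plexus and red blood cell markers. The library ctl replicate 3 stood apart by low oligodendrocyte markers (329 TPM against 2684 and 1452 TPM in the other ctl libraries), low choroid plexus and low mural cell markers. Where a count of 2 or more genes in a list moved by more than 1.5 times with 1 library left out, the count without that library is given with the list. In a bulk sample, fewer cells of a type and less RNA per cell cannot be told apart.

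**Figure D1:**
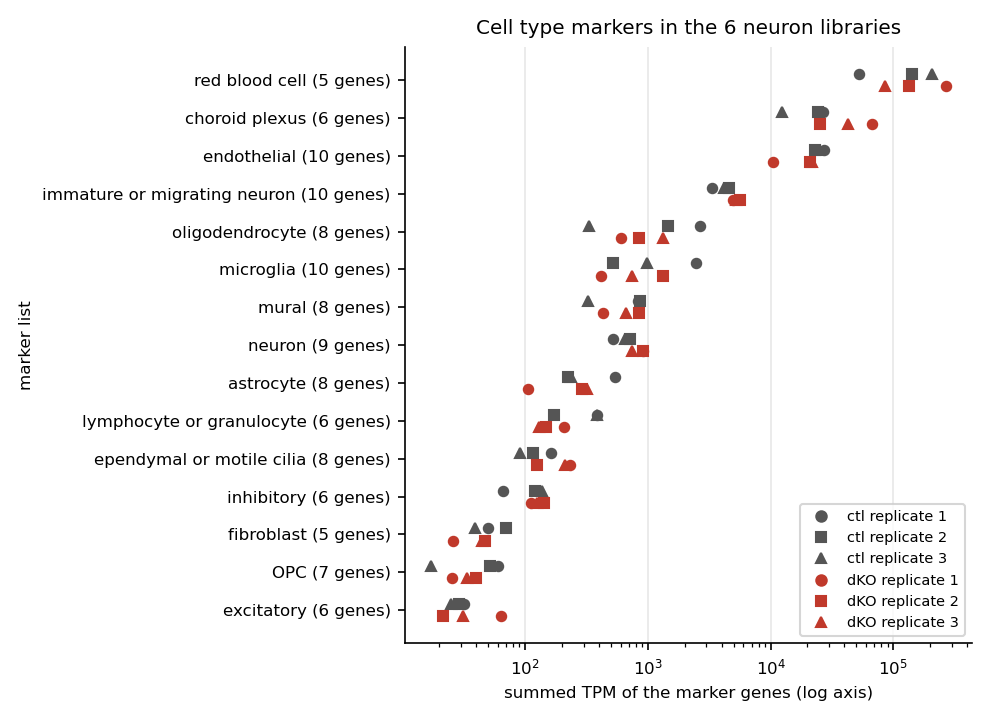
Summed TPM of each marker list (x axis, log scale) in the 6 libraries, grey for ctl and red for dKO, one symbol per replicate. The endothelial list lies between 10437 and 27459 TPM, while the neuron list lies between 522 and 920 TPM.

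Both targeted genes were read in these libraries at low levels, and neither was lower in dKO. Normalized counts here are counts scaled by the TMM method to a common library size. Cacna1c had normalized counts of 93.5, 111 and 62.1 in ctl and 163, 139 and 57.8 in dKO, a log2 change of 0.43 (standard error 0.43, adjusted p = 0.782 by edgeR's quasi-likelihood test). Cacna1d had 30.5, 10.7 and 20.3 in ctl and 54.3, 25.5 and 26.8 in dKO, a log2 change of 0.79 (standard error 0.58, adjusted p = 0.713 by edgeR). The groups overlapped for both genes, and a gene sum need not fall when single exons are removed in another cell type. Cspg4, which encodes NG2, had 167, 140 and 63.1 in ctl and 42.6, 70.8 and 29.9 in dKO (log2 change -1.36, standard error 0.47, unadjusted p = 0.0193 by edgeR), and ctl replicate 3 lay below dKO replicate 2.

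Across genes the differences between groups were small against the spread between libraries, whose coefficient of variation was 27.7%. In 14352 genes whose normalized count averaged 10 or more, edgeR's quasi-likelihood test called 0 at an adjusted p under 0.05 (0%). An unadjusted p under 0.05 was found for 1275 genes (8.88%), 699 of them higher in dKO (4.87%) and 576 lower (4.01%). DESeq2 on the same counts called 88 genes of 14331 at an adjusted p under 0.05 (0.614%), 29 higher and 59 lower. In all 88 the groups did not overlap, as in 1054 genes higher in dKO (7.34%) and 1148 lower (8%) of all tested, and the unadjusted edgeR p was under 0.05. Of the 59 lower genes, 26 were members of the interferon or major histocompatibility complex (MHC) lists, and of the 29 higher genes none was. The median log2 change over all tested genes was 0.0037, so the changes below are close to changes relative to the typical gene. Because the edgeR adjusted p was 0.527 or higher for every gene named below unless stated, members of a list are counted at an unadjusted p under 0.05 and read against 4.87% higher and 4.01% lower over all genes. The lists and their members were chosen with earlier results of these data known. The list counts are therefore a description and not independent evidence.

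The single genes with the smallest p that were higher in dKO had varied roles. These and the single lower genes after them were taken only from genes whose groups did not overlap. Their separation therefore follows from the choice. Khdrbs3, an RNA-binding protein that steers alternative splicing of neurexins, had normalized counts of 231, 297 and 320 in ctl and 716, 560 and 617 in dKO. Its log2 change was 1.16 (standard error 0.18), with an unadjusted p of 0.00018 by edgeR and an adjusted p of 0.00055 by DESeq2. The groups were separated by more than the range within either. Mms22l, which acts in the repair of stalled replication forks, had 145, 163 and 138 in ctl and 327, 300.2 and 302 in dKO (log2 change 1.06, standard error 0.19). H2ac24, a replication-dependent histone H2A gene, had 288, 298 and 361 in ctl and 682, 590.0 and 565 in dKO (log2 change 0.96, standard error 0.16), and reads of near-identical H2A genes may be shared with it. In both genes the lowest dKO library lay well above the highest ctl library.

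Other genes in this group of higher genes were Znrf2, Nell2, Wfikkn2 and Pipox. Znrf2, an E3 ubiquitin ligase, had 79.2, 113 and 120 in ctl and 262, 248 and 243 in dKO (log2 change 1.27, standard error 0.24). Nell2, a secreted ligand that guides commissural axons, had 361, 386 and 455 in ctl and 717, 666 and 672 in dKO (log2 change 0.77, standard error 0.15). Wfikkn2, a secreted binder of growth differentiation factors, had a log2 change of 1.71 (standard error 0.35), and Pipox, a peroxisomal oxidase of pipecolic acid, of 1.45 (standard error 0.31). By the rule of choice, every dKO library lay above every ctl library for these 4 genes. In a fit with the choroid plexus marker level as a term, the log2 change was 1.04 for Khdrbs3 and 1.14 for Wfikkn2.

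Among the lower genes were a cell cycle inhibitor, a lipid receptor and a caspase. Cdkn2b, the cyclin-dependent kinase inhibitor p15, had 778, 773 and 850 in ctl and 366, 503 and 493 in dKO (log2 change -0.82, standard error 0.16). Lpar6, a receptor for lysophosphatidic acid, had 4275, 3681 and 4355 in ctl and 2477, 2800 and 2570 in dKO (log2 change -0.65, standard error 0.14). Casp12, a caspase of the endoplasmic reticulum, had 1094, 642 and 642 in ctl and 344, 389 and 390 in dKO (log2 change -1.08, standard error 0.23). Phf11d, a PHD finger protein, and Galnt15, an enzyme of mucin-type O-glycosylation, had log2 changes of -1.14 (standard error 0.22) and -0.72 (standard error 0.15). By the same rule of choice, all 3 dKO libraries lay below all 3 ctl libraries in each of these genes.

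**Figure D2:**
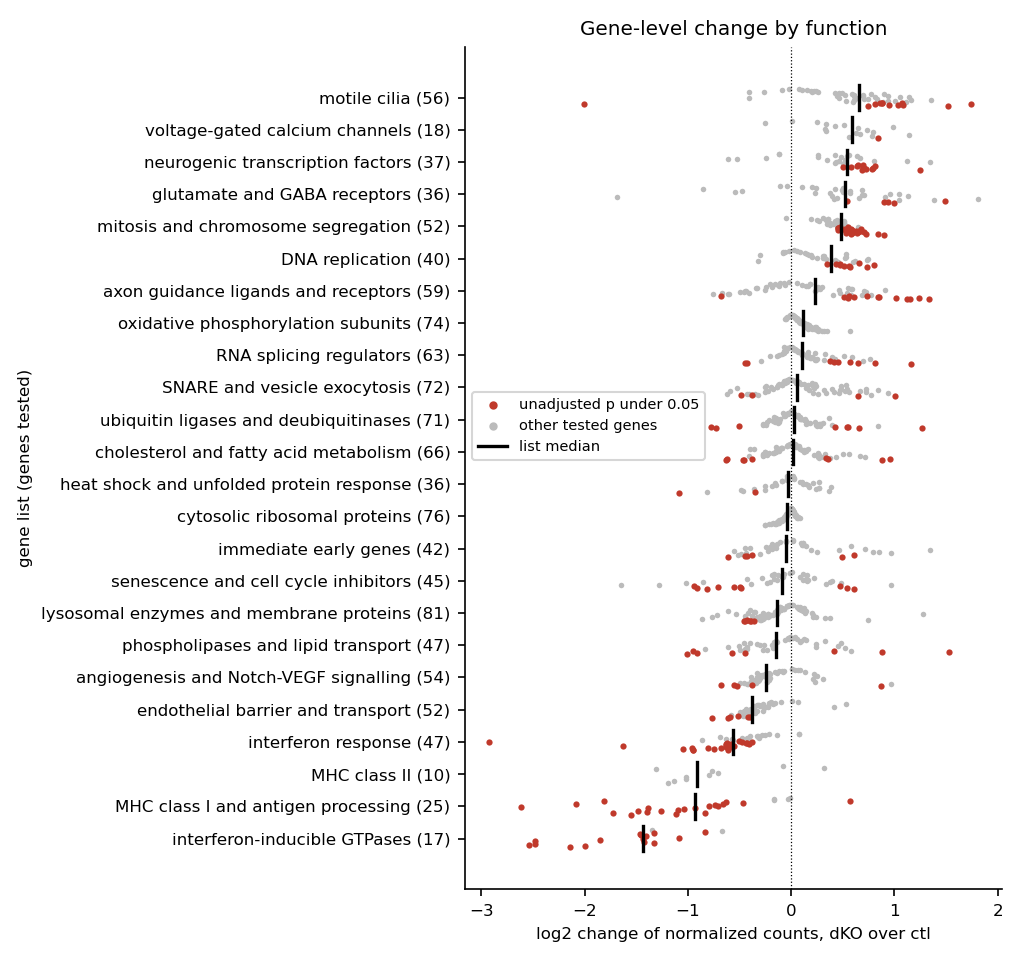
Log2 change of each tested gene (points; x axis, dKO over ctl) in the 24 functional lists (y axis, number of genes tested), red where the unadjusted edgeR p is under 0.05, with the list median as a bar. Interferon and MHC class I lists lie to the left with medians from -1.44 to -0.57, and the mitosis list lies to the right with 51 of 52 genes above 0.

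Genes of the interferon response and of MHC class I were lower in dKO as groups. Interferons act through receptors that activate STAT and IRF factors, which switch on immunity-related GTPases, guanylate-binding proteins, the immunoproteasome and the peptide transporters that load MHC class I. Of 17 interferon-inducible GTPases tested, 15 were lower at an unadjusted p under 0.05 and none was higher, and the median log2 change was -1.44. Of 25 MHC class I and antigen processing genes, 20 were lower and 1 (Cd1d1) was higher, with a median of -0.93. Of 47 further interferon response genes, 26 were lower and none was higher, with a median of -0.57.

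All 17 GTPases had a log2 change below 0. Gbp4, a guanylate-binding protein, had normalized counts of 15764, 3345 and 8136 in ctl and 1765, 2653 and 1751 in dKO, a log2 change of -2.14 (standard error 0.49, unadjusted p = 0.00199 by edgeR). Iigp1, an immunity-related GTPase, had 11698, 2654 and 5192 in ctl and 1467, 1688 and 1750 in dKO, a log2 change of -1.99 (standard error 0.46). Irgm1, a regulator of this GTPase family, had 8196, 2726 and 5445 in ctl and 1636, 2523 and 1878 in dKO (log2 change -1.44, standard error 0.36). In each of these 3 genes ctl replicate 1 was highest and ctl replicate 2 lowest among ctl, and the lowest ctl library lay only a little above the highest dKO library for Irgm1. Reads of closely related Gbp and Irgm family members may be shared between genes.

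In B2m, H2-K1 and H2-T22, which present peptides, the ctl libraries had the same order as in these GTPases. B2m, the light chain shared by MHC class I molecules, had 86444, 35216 and 50689 in ctl and 28201, 21947 and 21924 in dKO (log2 change -1.26, standard error 0.32). H2-K1, a classical heavy chain, had 30737, 10665 and 14918 in ctl and 8909, 6982 and 5672 in dKO (log2 change -1.39, standard error 0.37). H2-T22, a non-classical heavy chain, had 2894, 1316 and 2116 in ctl and 983, 977 and 971 in dKO (log2 change -1.11, standard error 0.26). The dKO libraries differed by little for H2-T22, while the ctl libraries spanned a factor of more than 2. Reads of the H2 genes are hard to assign, since their sequences are alike.

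Some genes that cut or carry peptides or drive class I transcription were lower, while Psme1, Pdia3, Canx and Calr of the same list did not pass. Tap1, a subunit of the peptide transporter, had 2616, 687 and 1284 in ctl and 424, 523 and 439 in dKO (log2 change -1.73, standard error 0.42). Psmb8, a subunit of the immunoproteasome, had 3782, 1329 and 2168 in ctl and 1012, 998 and 751 in dKO (log2 change -1.40, standard error 0.34). Nlrc5, the transactivator of MHC class I genes, had 631, 255 and 580 in ctl and 127, 209 and 163 in dKO (log2 change -1.55, standard error 0.35). All groups were separate here too, with ctl replicate 2 closest to dKO.

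The 3 further interferon response genes with the smallest p had ctl libraries that lay closer together. Ifi35, an interferon-induced leucine zipper protein, had 1769, 1728 and 1943 in ctl and 1074, 1232 and 1247 in dKO (log2 change -0.61, standard error 0.13). Ifit3, an interferon-induced tetratricopeptide protein that restricts viral RNA, had 3514, 2307 and 3360 in ctl and 1334, 1905 and 1513 in dKO (log2 change -0.95, standard error 0.21). Ifi44 had 1638, 1220 and 1727 in ctl and 640, 995 and 739 in dKO (log2 change -0.95, standard error 0.21). For Ifi35 the gap between the groups exceeded the range within either group.

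MHC class II genes, which professional antigen-presenting cells use, did not separate the groups. H2-Aa, a class II chain, had 752, 140 and 147 in ctl and 155, 163 and 136 in dKO, and Cd74, the invariant chain, had 2092, 404 and 464 in ctl and 669.5, 483 and 306 in dKO. In both genes ctl replicate 1 lay far above the other 5 libraries, which overlapped. Of 10 class II genes tested, none had an unadjusted p under 0.05, and their median log2 change was -0.91 with all libraries and -0.0040 without ctl replicate 1. With ctl replicate 2 left out 5 were lower, with ctl replicate 3 left out 2 and with dKO replicate 2 left out 1.

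The class I and interferon counts were as follows without the libraries that stood apart. Without ctl replicate 1, 15 of the GTPases, 16 of the class I genes and 14 of the interferon response genes were lower at an unadjusted p under 0.05, with medians of -1.02, -0.71 and -0.46. The interferon response count was 17 with ctl replicate 3 or dKO replicate 3 left out. Without both ctl replicate 1 and dKO replicate 1 the counts were 15, 18 and 18, with medians of -0.90, -0.64 and -0.40. With the microglia marker level as a term they were 15, 15 and 14, with the choroid plexus level 8, 11 and 8, and with the endothelial level 12, 15 and 9. Microglia markers summed to 413 to 2466 TPM over the libraries, and lymphocyte or granulocyte markers to 387, 173 and 385 TPM in ctl and 210, 147 and 130 TPM in dKO. The part of these cells in the result was not tested beyond these fits.

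**Figure D3:**
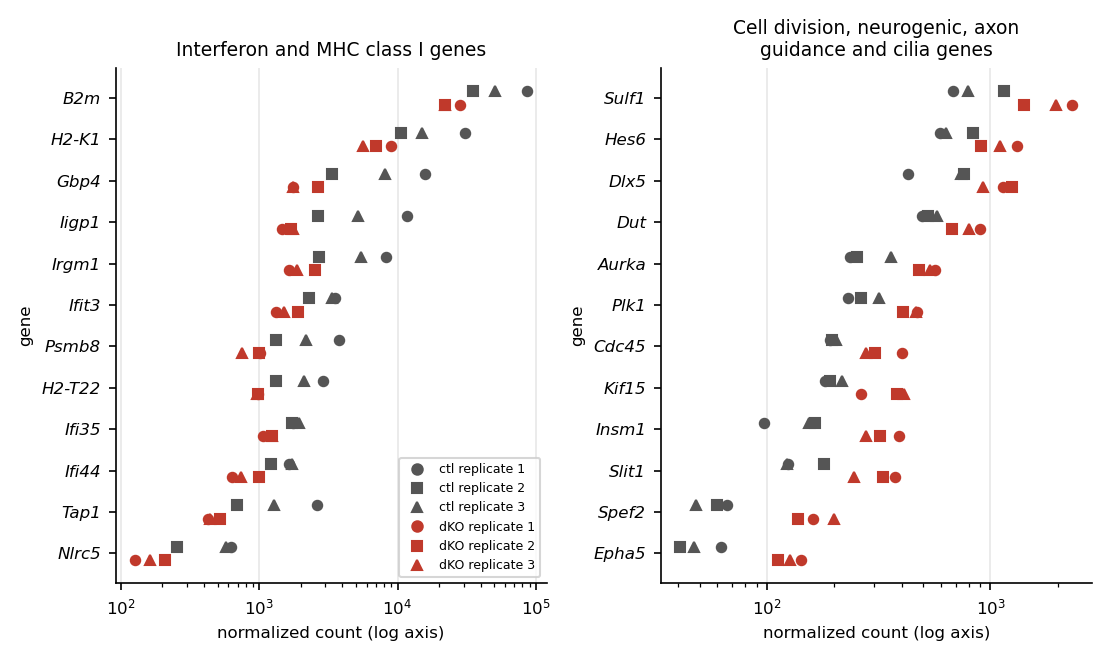
Normalized count (x axis, log scale) of 12 interferon and MHC class I genes on the left and 12 genes of cell division, neurogenesis, axon guidance and cilia on the right, in the 3 ctl (grey) and 3 dKO (red) libraries. In each of the 24 genes the groups do not overlap, and ctl replicate 1 is highest in 10 of the 12 genes on the left.

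Promoters of some of these genes are shown to set a known control sequence of interferon responses, which some members hold and others lack, beside the counts. The interferon-stimulated response element is the site bound by IRF-containing complexes, and its core was searched as TTTC, any 2 bases and TTTC again, or on the other strand GAAA, any 2 bases and GAAA, in the 250 bases before each RefSeq transcript start (GRCm38.p6). Of 14614 such windows of 11381 tested genes, 2.72% held a match. A match was found in 9 of 11 windows of the interferon-inducible GTPases (81.8%), in 13 of 44 windows of the interferon response genes (29.5%) and in 3 of 22 windows of the class I genes (13.6%). Windows were found for 10 of the 17 GTPases, 37 of the 47 interferon response genes and 20 of the 25 class I genes. The windows of Irgm1 (chr11:48871421-48871670, minus strand), B2m (chr2:122147437-122147686, plus strand), H2-T22 (chr17:36042743-36042992, minus strand) and Ifit3 (chr19:34583279-34583528, plus strand) are printed 5′ to 3′ with the matches in capitals. They cross no exon of the GENCODE M21 annotation.
Irgm1: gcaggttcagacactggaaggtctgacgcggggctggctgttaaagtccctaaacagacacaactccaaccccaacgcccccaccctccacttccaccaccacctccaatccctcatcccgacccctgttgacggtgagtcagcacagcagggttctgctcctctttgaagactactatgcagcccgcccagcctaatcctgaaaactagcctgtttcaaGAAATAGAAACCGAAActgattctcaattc
B2m: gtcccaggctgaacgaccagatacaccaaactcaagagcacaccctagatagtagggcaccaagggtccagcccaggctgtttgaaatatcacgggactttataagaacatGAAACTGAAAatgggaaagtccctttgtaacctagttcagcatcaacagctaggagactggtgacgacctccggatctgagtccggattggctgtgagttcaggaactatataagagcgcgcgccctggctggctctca
H2-T22: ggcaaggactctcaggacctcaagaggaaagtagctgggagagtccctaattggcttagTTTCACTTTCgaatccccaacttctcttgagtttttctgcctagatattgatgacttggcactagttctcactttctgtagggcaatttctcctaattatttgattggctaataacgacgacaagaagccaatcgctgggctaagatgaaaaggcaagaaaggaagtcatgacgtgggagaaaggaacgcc
Ifit3: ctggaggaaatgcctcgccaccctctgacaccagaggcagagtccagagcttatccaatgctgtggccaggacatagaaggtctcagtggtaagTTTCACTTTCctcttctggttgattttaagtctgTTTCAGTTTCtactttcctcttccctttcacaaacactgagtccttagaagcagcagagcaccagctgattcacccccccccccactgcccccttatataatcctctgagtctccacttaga
The capitals of Irgm1 are a pair of overlapping matches close to the start, those of Ifit3 a pair of separate ones, and B2m and H2-T22 hold 1 each. The windows of Tap1, Psmb8, Ifi35 and Ifi44, which were also lower, held no match to these letters. A match describes the sequence and is no evidence of a factor bound there.

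Genes of cell division were higher in dKO as a group. Of 52 genes of mitosis and chromosome segregation, 25 were higher at an unadjusted p under 0.05 and none was lower, 51 had a log2 change above 0 against 50.6% of all genes, and the median was 0.49. Of 40 DNA replication genes, 10 were higher and none was lower, with a median of 0.39. Aurka, the kinase that matures the spindle poles, had normalized counts of 236, 253 and 358 in ctl and 567, 478 and 534 in dKO (log2 change 0.90, standard error 0.20, unadjusted p = 0.00177 by edgeR). Plk1, a kinase of mitotic entry, had 230, 263 and 316 in ctl and 468, 406 and 462 in dKO (log2 change 0.72, standard error 0.18). Kif15, a spindle motor, had 181, 191 and 216 in ctl and 265, 382 and 410 in dKO (log2 change 0.84, standard error 0.22). The groups did not overlap in these genes, and ctl replicate 3 was the ctl library nearest to dKO.

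Of the replication genes, Dut, which keeps uracil out of DNA, had 494, 525 and 578 in ctl and 898, 675 and 806 in dKO (log2 change 0.58, standard error 0.16). Cdc45, a part of the replicative helicase, had 191, 195 and 203 in ctl and 402, 305 and 276 in dKO (log2 change 0.74, standard error 0.21). These ctl libraries lay close together and below all dKO libraries. The replication count of 10 was 4 with ctl replicate 2 left out, 5 with ctl replicate 1 (median 0.26), 6 with dKO replicate 3 and 16 with ctl replicate 3. The number of mitosis genes higher at an unadjusted p under 0.05 depended on the libraries. It was 7 when ctl replicate 2 was left out, 8 when ctl replicate 1 was, 14 when dKO replicate 2 was, 17 when dKO replicate 1 or 3 was, and 47 when ctl replicate 3 was. It was 10 with both replicates 1 left out. Leaving out 1 library at a time, the median stayed between 0.35 and 0.73, and it was 0.77 with the choroid plexus level as a term, where 31 genes passed.

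The CCAAT box, the site of the factor NF-Y, was frequent in windows of the mitosis genes, and as frequent in those of the class I genes, which were lower. It was searched as CCAAT or, on the other strand, ATTGG, and was found in 38 of 52 windows of the mitosis genes (73.1%) and in 21 of 37 of the DNA replication genes (56.8%), against 16 of 22 of the class I genes (72.7%) and 35.1% of all windows. The cell cycle homology region, searched as TTTGAA or TTCAAA, was found in 34.6% of mitosis windows, in 45.5% of the GTPase windows, in 10.8% of replication windows and in 10.9% of all windows. The window of Aurka (chr2:172370571-172370820, minus strand, GRCm38.p6) is shown as the mitosis gene with the smallest p, with its CCAAT boxes in capitals.
Aurka: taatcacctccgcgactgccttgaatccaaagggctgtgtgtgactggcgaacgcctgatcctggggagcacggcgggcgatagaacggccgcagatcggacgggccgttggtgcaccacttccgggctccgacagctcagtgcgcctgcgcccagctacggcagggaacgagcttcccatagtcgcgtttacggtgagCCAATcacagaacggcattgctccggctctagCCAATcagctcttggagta
Both boxes of Aurka lie in the last part of the window, near the transcript start.

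Transcription factors of neurogenesis were higher as a group. Of 37 tested, 13 were higher at an unadjusted p under 0.05 and none was lower, and the median log2 change was 0.54. Insm1, a zinc finger factor of neuronal progenitors, had 96.5, 164 and 154 in ctl and 389, 320.0 and 279 in dKO (log2 change 1.25, standard error 0.26, unadjusted p = 0.00118 by edgeR). Hes6, a promoter of neuronal differentiation, had 596, 836 and 634 in ctl and 1313, 911 and 1109 in dKO (log2 change 0.69, standard error 0.19). Dlx5, a homeobox factor of interneuron precursors, had 426, 759 and 735 in ctl and 1138, 1247 and 928 in dKO (log2 change 0.79, standard error 0.23). The groups did not overlap, and ctl replicate 1 was lowest in each. With ctl replicate 1 left out, 7 genes of the list were higher with a median of 0.42, as were 7 with dKO replicate 1 (median 0.34) or dKO replicate 2 left out, and with the endothelial level as a term 3 were higher and 3 lower with a median of 0.20.

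Ligands and receptors of axon guidance were divided. Of 59 tested, 12 were higher and 1 (Sulf2) was lower at an unadjusted p under 0.05, and 36 had a log2 change above 0 with a median of 0.23. Slit1, the repellent ligand of Robo receptors, had 123.93, 179.43 and 123.04 in ctl and 374, 330.39 and 244.47 in dKO (log2 change 1.15, standard error 0.26). Sulf1, a sulfatase that trims heparan sulfate on the cell surface, had 682, 1149 and 794 in ctl and 2327, 1418 and 1956 in dKO (log2 change 1.12, standard error 0.24). Epha5, an ephrin receptor, had 62.0, 41.0 and 47.1 in ctl and 141, 111 and 127 in dKO (log2 change 1.34, standard error 0.31). Robo1, the receptor of Slit ligands, had a log2 change of 1.02 (unadjusted p = 0.0117 by edgeR). The number of higher genes was 5 with ctl replicate 1 or dKO replicate 2 left out and 6 with ctl replicate 3 left out. The number of lower genes was 4 with dKO replicate 2 left out, 3 with ctl replicate 3, 2 with ctl replicate 2 and 0 with ctl replicate 1 left out. The median was 0.10 with ctl replicate 3 left out and 0.14 with dKO replicate 2 left out.

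Genes of the neuronal surface had positive medians, though most members did not pass the threshold. Of 36 glutamate and GABA receptor subunits, 5 were higher (4.87% of all genes were) and none was lower, with a median of 0.53. Gabrb2, a subunit of GABA-A receptors, had 233, 230 and 326 in ctl and 703, 360 and 449 in dKO (log2 change 0.94, standard error 0.27), and Grin3a, an NMDA receptor subunit, had 70.1, 72.2 and 78.1 in ctl and 133, 99.1 and 179 in dKO (log2 change 0.90, standard error 0.31). The median of the receptor list was -0.046 without dKO replicate 1, the library with the highest count of Gabrb2. The higher count was 3 with that library left out and 9 with dKO replicate 2 left out. Of 18 voltage-gated calcium channel subunits, 17 had a log2 change above 0 with a median of 0.59, and 1 was higher at an unadjusted p under 0.05. The median was 0.35 with dKO replicate 1 left out. The 1 gene was Cacng4, an auxiliary subunit that also serves AMPA receptors, with 61.0, 134 and 136 in ctl and 203, 244 and 146 in dKO (log2 change 0.84, standard error 0.36), and no channel gene passed with ctl replicate 1 or dKO replicate 1 left out, while 2 passed with ctl replicate 3 and 3 with dKO replicate 3 left out. Snap25, the membrane SNARE protein given as a marker, had 1802, 1829 and 2049 in ctl and 5075, 1147 and 2020 in dKO, so only dKO replicate 1 was high and dKO replicate 2 was below all ctl libraries. Tubb3, the neuronal tubulin given as a marker, had 1978, 3213 and 3069.7 in ctl and 4432, 4336 and 2869.7 in dKO (log2 change 0.49, standard error 0.24), and the groups overlapped.

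Genes of motile cilia had the highest median of the 24 lists, 0.66. Of 56 tested, 11 were higher and 1 (Tmem212) was lower at an unadjusted p under 0.05. Spef2, a protein of the axonemal central pair, had 66.0, 59.5 and 48.1 in ctl and 160, 138 and 200.1 in dKO (log2 change 1.52, standard error 0.29, unadjusted p = 0.00071 by edgeR). Cfap69, a cilia and flagella protein, had 216, 289 and 254 in ctl and 542, 357 and 371 in dKO (log2 change 0.74, standard error 0.22). Both genes separated the groups. The sum of the ependymal markers, which stand for another ciliated cell type, was 164, 115 and 90.3 TPM in ctl and 233, 125 and 213 TPM in dKO. With the choroid plexus level as a term, the median of the cilia list was 0.052 and 3 genes were higher. With dKO replicate 1 left out 5 genes were higher, with ctl replicate 3 left out 6, with dKO replicate 3 left out 7 and with dKO replicate 2 left out 23.

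Genes of lysosomes and exocytosis were examined because the study concerns lysosome release by neurons. The study measured lysosomes by imaging inside neuronal cell bodies, while the values here are RNA levels. The libraries also held markers of other cell types, so a difference in these genes cannot be assigned to neurons. Of 81 lysosomal enzymes and membrane proteins, 6 were lower at an unadjusted p under 0.05 (4.01% of all genes were) and none was higher, and 60 had a log2 change below 0 against 49.4% of all genes, with a median of -0.13. Asah1, the lysosomal acid ceramidase, had 2611, 2566 and 2516 in ctl and 1596, 1916 and 2095 in dKO (log2 change -0.46, standard error 0.14). Scarb2, the receptor that carries glucocerebrosidase to lysosomes, had 1415, 1086 and 1037 in ctl and 1004, 774 and 811 in dKO (log2 change -0.45, standard error 0.17). Hgsnat, an acetyltransferase of heparan sulfate breakdown, had 1350, 1359 and 1634 in ctl and 961, 1176 and 1182 in dKO (log2 change -0.39, standard error 0.15). The 3 genes separated the groups, though the gap was narrow for Scarb2. The other lower members were Arsb, Ctso and Ctsh, enzymes of glycan and protein breakdown. Without ctl replicate 1, 2 genes of the list were lower and the median was -0.069.

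Of 72 SNARE and vesicle exocytosis genes, 2 were higher and 2 were lower, with a median of 0.058, so this list was close to all genes. Syn1, which tethers synaptic vesicles, had 309, 459 and 395 in ctl and 781, 519 and 526 in dKO (log2 change 0.65, standard error 0.22). Unc13a, which primes vesicles for release, had 69.1, 80.0 and 47.1 in ctl and 194, 115 and 85.6 in dKO (log2 change 1.01, standard error 0.39). Vamp5, a vesicle SNARE found mainly outside neurons, had 349, 310 and 299 in ctl and 195, 257 and 235 in dKO (log2 change -0.48, standard error 0.19). The fourth gene, Rab3d, was lower with a log2 change of -0.38. With ctl replicate 1 left out none of the list was higher and 1 was lower, with dKO replicate 1 left out none was higher, and with ctl replicate 3 left out 1 was higher and 1 was lower. The higher count was 4 with dKO replicate 3 left out and 11 with dKO replicate 2 left out, and the lower count was 0 with ctl replicate 2 left out.

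Lipid genes included higher and lower members. Of 66 cholesterol and fatty acid genes, 4 were higher and 5 were lower, with a median of 0.015, and of 47 phospholipase and lipid transport genes, 3 were higher and 5 were lower, with a median of -0.15. Stard4, a carrier of cholesterol between membranes, had 1092, 1091 and 975 in ctl and 555, 745 and 735 in dKO (log2 change -0.63, standard error 0.16). Nceh1, a hydrolase of cholesterol esters, had 719, 650.4 and 674 in ctl and 552, 462 and 471 in dKO (log2 change -0.46, standard error 0.14). Lipe, the hormone-sensitive lipase, had 603, 565 and 690.1 in ctl and 321, 521 and 412 in dKO (log2 change -0.57, standard error 0.20). All 3 genes separated the groups. The higher cholesterol genes included Dhcr7, Fdft1 and Sqle of sterol synthesis, with log2 changes of 0.95, 0.36 and 0.34. Pla2g4a, the cytosolic phospholipase that frees arachidonic acid, and Apod, a lipid-binding lipocalin, were singled out by the study on these same samples, as were B2m, Irgm1, H2-K1, Psmb8, Casp12, Cd74, Usp53, Znrf2, Insm1, Sulf1, Slit1 and Aurka, so that the values of these genes are a description and not independent evidence. The log2 changes of Pla2g4a and Apod were -1.01 (standard error 0.24) and -0.91 (standard error 0.22). Apoc1, an apolipoprotein the study also singled out, had 10.2, 7.80 and 9.63 in ctl and 47.5, 16.05 and 16.5 in dKO, with dKO replicate 1 far above the others. The higher count of the cholesterol and fatty acid list was 1 with ctl replicate 2 or dKO replicate 3 left out, and its lower count was 2 with ctl replicate 1 or 3 left out and 3 with ctl replicate 2 left out. For the phospholipase list the higher count was 0 with ctl replicate 2 or dKO replicate 1 left out and 1 with ctl replicate 3 left out, and the lower count was 3 with ctl replicate 1 or dKO replicate 3 left out. The median of the phospholipase list ran from -0.19 to -0.036 when 1 library was left out.

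Most vascular genes had a log2 change below 0, though most did not pass the threshold. Of 52 genes of the endothelial barrier and its transporters, 6 were lower at an unadjusted p under 0.05 (4.01% of all genes were) and none was higher. A log2 change below 0 was found in 48 (49.4% of all genes), and the median was -0.38. Slc16a1, a lactate transporter abundant in brain capillaries, had 47236, 39636 and 59049 in ctl and 19093, 33339 and 33442 in dKO (log2 change -0.76, standard error 0.26). Reck, a receptor of Wnt signals at the blood-brain barrier, had 2596, 2332 and 2525 in ctl and 1133, 1998 and 1738 in dKO (log2 change -0.61, standard error 0.21). Ptn, the growth factor pleiotrophin, had 10227, 9116 and 9000 in ctl and 6213, 6989 and 8013 in dKO (log2 change -0.42, standard error 0.16). Every ctl library lay above every dKO library for these genes, and dKO replicate 1 was lowest. Without dKO replicate 1 the median was -0.15 with 5 genes lower. With ctl replicate 1 left out 2 genes were lower, with ctl replicate 2 or 3 left out 3, and with dKO replicate 2 left out 13. Of 54 angiogenesis genes, 4 were lower and 1 was higher, and Ackr3, a scavenger receptor of the chemokine CXCL12, had 2470, 2304 and 2492 in ctl and 1562, 1687 and 1791 in dKO (log2 change -0.53, standard error 0.13). The median of the angiogenesis list was -0.24 with all libraries and -0.017 without dKO replicate 1. The lower count of that list was 1 with dKO replicate 1 left out, 2 with ctl replicate 1 or 2 left out and 9 with dKO replicate 2 left out.

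Lists of energy, protein synthesis, stress, immediate early response and growth arrest had medians between -0.086 and 0.12. Of 74 oxidative phosphorylation subunits and 76 cytosolic ribosomal proteins, none had an unadjusted p under 0.05 in either direction, and the medians were 0.12 and -0.036. A log2 change above 0 was found in 67 of the 74 oxidative phosphorylation genes and 22 of the 76 ribosomal genes, against 50.6% of all genes. The sign of neither median held when single libraries were left out. The oxidative phosphorylation median then ran from -0.038 to 0.23 and the ribosomal median from -0.19 to 0.044. With dKO replicate 2 left out, 10 oxidative phosphorylation genes were higher, and with dKO replicate 1 left out, 3 ribosomal genes were lower. Of 36 heat shock and unfolded protein response genes, 2 were lower, Casp12 and Dnajb9, and the median was -0.030. This count was 1 with ctl replicate 1, ctl replicate 2 or dKO replicate 1 left out and 4 with dKO replicate 2 left out. Of 42 immediate early genes, 2 were higher and 4 were lower. Egr1, an activity-induced transcription factor, had 4093, 5283 and 4096 in ctl and 6018, 6045 and 6905 in dKO (log2 change 0.49, standard error 0.16), while Klf6, an injury-induced one, had 6421, 8038 and 7528 in ctl and 5041, 5727 and 5414 in dKO (log2 change -0.44, standard error 0.15). These 2 genes differed in opposite directions, each without overlap. Leaving out single libraries, the higher count of this list fell to 0 (ctl replicate 1 or dKO replicate 3) or 1 (ctl replicate 3 or dKO replicate 1), and the lower count to 1 (ctl replicate 2) or 2 (ctl replicate 3 or dKO replicate 3). Of 45 senescence and cell cycle inhibitor genes, 3 were higher and 7 were lower, with a median of -0.086, and Cdkn2b above was the one with the smallest p. The lower count was 3 with ctl replicate 1 left out and 4 with dKO replicate 1 left out.

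Of 71 ubiquitin ligases and deubiquitinases, 5 were higher and 3 were lower, with a median of 0.026. Usp53, a protein of tight junctions, had 2819, 2395 and 2880 in ctl and 1311, 1829 and 1737 in dKO (log2 change -0.73, standard error 0.17). The higher count of the ubiquitin list was 3 with ctl replicate 1 left out, and its lower count was 1 with ctl replicate 1 or 3 or dKO replicate 1 or 3 left out. Of 63 splicing regulators, 7 were higher and 2 were lower, with a median of 0.11. The higher count was 3 with ctl replicate 1 or dKO replicate 1 left out, and the lower count was 0 with ctl replicate 1 or dKO replicate 3 left out and 1 with ctl replicate 3 left out. Besides Khdrbs3, the higher ones included Elavl4, a neuronal RNA-stabilising protein with 1120, 1882 and 1850 in ctl and 2912, 2498 and 2205 in dKO (log2 change 0.65, standard error 0.22). Elavl3, Celf3 and Ptbp2, also expressed in neurons, had log2 changes of 0.57, 0.81 and 0.46. Ptbp3 and Mbnl1 were lower, with log2 changes of -0.42 and -0.45.

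Transcript shares were tested next, to find changes that the gene sums hide. A share is the percentage of a gene's estimated counts that one transcript holds. In 8535 genes with at least 2 transcripts past the count filter, 34577 transcripts were compared with edgeR's diffSpliceDGE, whose Simes p combines the transcripts of a gene. The adjusted p was under 0.05 in 6 genes (0.0703%), and 345 genes (4.04%) passed without adjustment. Of the 345, 302 (87.5%) had an unadjusted p of 0.05 or more for the gene sum, against 90.6% of all 8535 genes. A log2 change of the sum within 0.2 was found in 183 (53.0%), against 52.6% of all, so both shares were close to those over all genes tested. The spread of shares within a group was wide, with a median standard deviation of 4.49 percentage points, and 41.1% of the tested transcripts were at 0 in at least 1 library.

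**Figure D4:**
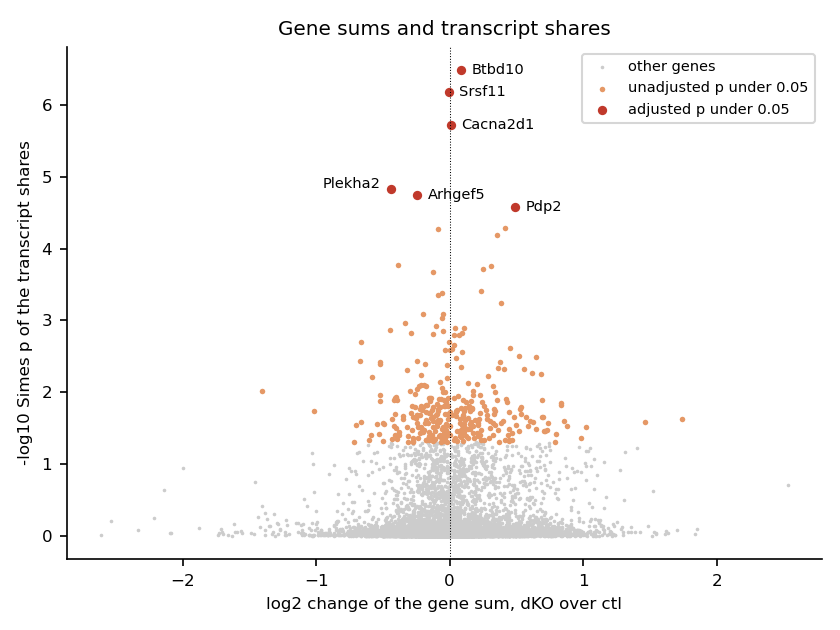
Log2 change of the gene sum (x axis, dKO over ctl) against -log10 of the Simes p of the transcript shares (y axis) for the 8535 genes. The 6 genes past an adjusted p of 0.05 (red) have sums that changed by 0.49 or less in either direction.

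The 6 genes were Cacna2d1, Btbd10, Srsf11, Plekha2, Arhgef5 and Pdp2. Cacna2d1 encodes an auxiliary subunit of voltage-gated calcium channels and the target of gabapentin. Its transcript XM_036164761 held 0.569%, 0.358% and 0.395% of the gene in ctl and 1.40%, 17.4% and 23.01% in dKO (edgeR adjusted p = 0.00542), while the log2 change of its sum was 0.0084. The shift was large in dKO replicates 2 and 3 and small in replicate 1. The main transcript XM_011249743 held 96.0%, 97.7% and 97.4% in ctl and 92.8%, 81.2% and 74.8% in dKO.

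In the other 5 genes the transcript with the smallest p was absent or nearly absent from one group. Btbd10, a BTB domain protein, had XM_011241890 at 7.44%, 9.10% and 24.1% in ctl and at 0.00295%, 0% and 0% in dKO (edgeR adjusted p = 0.00280). Plekha2, a lipid-binding adaptor, had XM_006509230 at 30.2%, 42.5% and 41.5% in ctl and at 0%, 0% and 0.0611% in dKO (edgeR adjusted p = 0.0306), and its NM_031257 at 46.3%, 22.6% and 9.23% in ctl and 69.2%, 56.6% and 68.5% in dKO. Arhgef5, a guanine nucleotide exchange factor, had XM_006506387 at 17.3%, 39.5% and 32.5% in ctl and at 0% in all dKO libraries (edgeR adjusted p = 0.0306). Pdp2, a phosphatase that activates pyruvate dehydrogenase, ran the other way, with NM_001024606 at 0% in all ctl libraries and at 19.4%, 46.8% and 24.1% in dKO (edgeR adjusted p = 0.0378). Srsf11, a splicing factor, had XM_030252791 at 0%, 9.88% and 7.32% in ctl and at 0% in dKO (edgeR adjusted p = 0.00282), so the groups overlapped at 0. In Btbd10, Plekha2, Arhgef5 and Pdp2 the groups did not overlap.

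**Figure D5:**
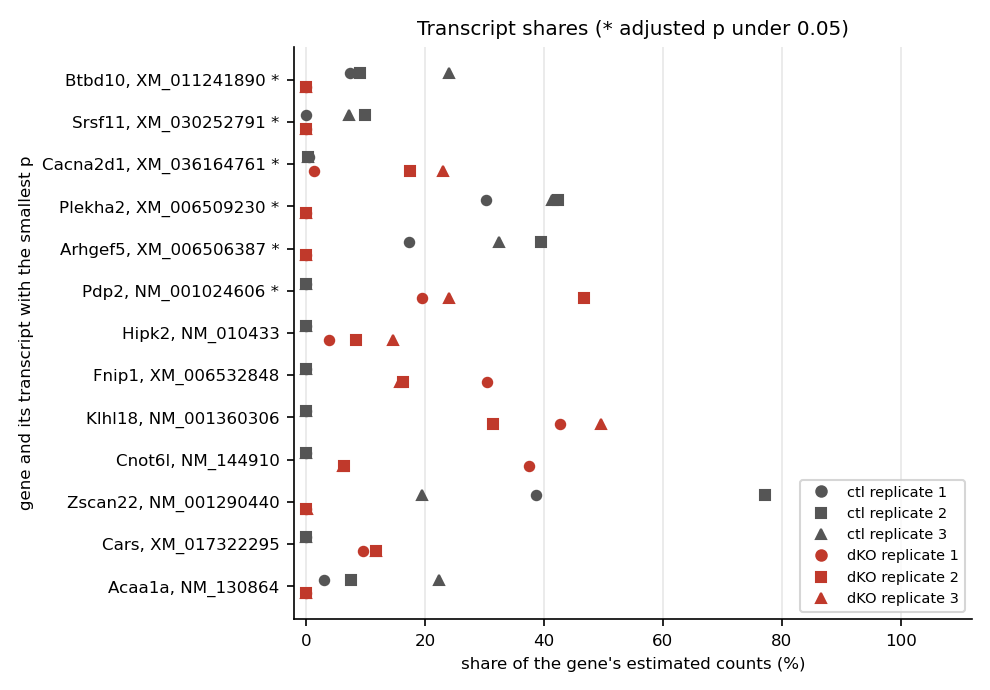
Share of the gene's estimated counts (x axis, %) held by the transcript with the smallest p in 13 genes, the 6 that passed (asterisk) and 7 more with the next smallest Simes p among genes in which any transcript's share moved by 10 points or more without overlap. In 12 of the 13 genes the transcript is at 0 or nearly 0 in all libraries of one group.

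Genes next in order showed the same on and off pattern without passing. Klhl18, an adaptor of the Cul3 ubiquitin ligase, had NM_001360306 at 0% in all ctl libraries and at 42.6%, 31.4% and 49.7% in dKO (edgeR adjusted p = 0.0616). Fnip1, a partner of folliculin in nutrient signalling, had XM_006532848 at 0% in ctl and at 30.5%, 16.3% and 15.8% in dKO (edgeR adjusted p = 0.0566). Hipk2, a stress-activated kinase, had NM_010433 at 0% in ctl and at 3.84%, 8.41% and 14.7% in dKO (edgeR adjusted p = 0.0566). In all 3 genes each dKO library lay above each ctl library. Of the 345 genes at an unadjusted p under 0.05, 178 had the transcript with the smallest p at 0 in all ctl libraries and 143 at 0 in all dKO libraries, after rounding to whole counts. A share that moved by 10 points or more without overlap was found in 126 of the 345 genes and in 825 of the 8535 genes (9.67%).

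On and off transcripts were also counted directly. At 0 in all ctl libraries and at 10 or more counts in each dKO library were 163 of the 66298 transcripts (0.246%), and the reverse held for 114 (0.172%). They belonged to 258 genes, of which 39 (15.1%) had an unadjusted p under 0.05 for the sum, against 8.88% of all genes. These transcripts were chosen by their group difference and are part of the sums. A percentage above that of all genes is therefore built in and is not a result about these genes. The following transcripts were named after their values were seen. Dcx had XM_030251213 at 0 in ctl and at 192, 160 and 177 counts in dKO, which was 3.22%, 2.06% and 3.94% of the gene. Itpr1, a calcium release channel of the endoplasmic reticulum, had XM_017321409 at 0 in ctl and at 254, 86 and 93 counts in dKO, while the log2 change of its sum was 0.12. Dnm1l, the motor of mitochondrial fission, had XM_006522636 at 0 in ctl and at 65, 68 and 63 counts in dKO. For Itpr1 and Dnm1l the gene sums of the groups overlapped, as they did for Dcx.

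Some on and off transcripts fell in the functional lists. Cacna1h, a T-type calcium channel, had NM_021415 at 0% in all ctl libraries and at 100%, 100% and 89.6% in dKO, from 48, 62 and 32 counts. The targeted gene Cacna1c had XM_036165778 at 0%, 0% and 0.45% in ctl and at 6.77%, 18.0% and 28.4% in dKO, from 11, 26 and 16 counts. Oasl1, an interferon-induced oligoadenylate synthetase-like protein, had NM_145209 at 0% in ctl and at 61.9%, 31.6% and 46.0% in dKO, though its sum was not higher (log2 change -0.32, unadjusted p = 0.332 by edgeR). Of lysosomal genes, Man2b1, an enzyme that cleaves mannose, had XM_006530748 at 0% in ctl and at 10.5%, 4.72% and 4.62% in dKO. Among neurogenic factors, Myt1l had NM_001361658 at 0% in ctl and at 9.25%, 8.47% and 6.09% in dKO, and Bcl11a had XM_006514507 at 15.6%, 10.7% and 3.49% in ctl and at 0% in dKO. None of these 5 list genes passed at an adjusted p under 0.05, and Cacna1c was not among the genes tested for shares. No list held more than 4 genes with a share p under 0.05, against 4.04% of all genes tested. The counts were 4 of 50 for lysosomal genes, 4 of 43 for cholesterol and fatty acid genes, 3 of 19 for DNA replication genes, 3 of 55 for RNA splicing regulators and 2 of 8 for calcium channel genes.

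How reads were divided among transcripts of a gene was decided upstream, and the uncertainty of that division is not in the deposited values or in these tests. On simulated counts with the spread of these transcripts, the share test called 3 of 191 changed genes at a log2 change of 2. It called 12 unchanged genes there, more than the 6 genes called here. At a log2 change of 4 it called 67 of 196 changed genes and 24 unchanged ones. The share test thus missed most changed genes at this spread, so a gene that did not pass cannot be read as unchanged. With curated NM transcripts only, none of 4843 genes passed at an adjusted p under 0.05, and 149 passed without adjustment. When dKO replicate 3 was left out none passed. Leaving out another library gave 4 to 9 genes. Of the 6 named, 4 passed with dKO replicate 1 left out, 3 with ctl replicate 1, 1 (Btbd10) with ctl replicate 2 or dKO replicate 2, and 0 with ctl replicate 3 left out.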

How the data were processed

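RNA from the cell fraction labelled neuron was sequenced after polyA selection with a TruSeq kit. The authors deposited an estimated count and a TPM value for each RefSeq transcript in each library. The labels name mm39, while the methods name GRCm38, HISAT2 and featureCounts for counts per gene. The program behind the estimated counts is not given in the sources used here. The deposited fold changes and p-values of the authors' own comparisons were not used. Of the count values, 58.12% were not whole. Counts were summed per gene and rounded. Genes whose TMM-normalized count averaged 10 or more entered the quasi-likelihood test of edgeR 4.0.16 in R 4.3.3, with Benjamini-Hochberg adjustment, and transcript shares with diffSpliceDGE and the Simes p. DESeq2 1.42.0 and limma 3.58.1 were alternatives, and the scripts were tested on simulated data. Depth was similar between libraries, and the p-values measure only the spread between these libraries of pooled mice. An exact permutation test of 3 against 3 cannot go below p = 0.1 (two-sided). Counts of 124 genes without a symbol made up 0.0384% to 0.0497% of a library. Named genes were the targeted genes and Cspg4, the given markers, up to 3 genes of each list with the smallest p, genes from the 10 higher and 10 lower with the smallest p among those with groups that did not overlap and a mean normalized count of at least 50, the 12 genes with the smallest Simes p and a share that moved by at least 10 points without overlap, and genes the study names. Any other gene was named after its values were seen. The members and lists were chosen with earlier results of these data known. Promoter windows are those of RefSeq (GRCm38.p6), and windows on 1 chromosome were left out. Some results are not reported here.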

Additional observations from a re-analysis of the deposited data

How the results depend on the processing

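The count of genes at an adjusted p under 0.05 was 0 by edgeR and 0 when any 1 library was left out. It was 88 by DESeq2 and 1 with the choroid plexus level as a term, an alternative added after seeing the data. That gene was Gfy, named after its values were seen. At an unadjusted p under 0.05 the count was 1275. It ranged from 771 (without ctl replicate 1) to 1572 (without dKO replicate 2), and was 641 with the microglia level as a term and 750 with the choroid plexus level, both added after seeing the data. The count of genes with a changed transcript share at an adjusted p under 0.05 was 6. It was 24 with the gene-level F test (all 6 among them), 1 with limma-voom (Psma3, none of the 6), 0 with curated transcripts only, 0 (without dKO replicate 3) to 9 when 1 library was left out (0 to 4 of the 6), and 11 without ctl replicate 1 and dKO replicate 1 (4 of the 6). The cause was not tested. At an unadjusted p the count of 345 was 539 with limma-voom, 91 with transcripts of a mean share of at least 10%, 149 with curated transcripts only and 276 to 317 when 1 library was left out. With the choroid plexus level as a term, 42 of the 70 named genes kept their change, 26 were weaker, 1 was stronger and 1 was reversed. Of the 24 list medians, 15 moved in that fit. With the endothelial level as a term, 50 named genes kept their change, 18 were weaker and 2 were reversed, and 11 list medians moved. The log2 change of Cacna1c was -0.055 with the endothelial level as a term. That of Snap25 was -0.63 with the endothelial and -0.80 with the choroid plexus level, -0.30 without both replicates 1, and -0.26 to 0.91 when 1 library was left out. H2-Aa ranged from -1.56 to 0.079 and Cd74 from -1.39 to 0.165 when 1 library was left out, and H2-Aa was 0.06 without both replicates 1. The replicate numbers did not pair the libraries. Correlations of same-numbered deviations were 0.166, -0.0759 and -0.0760, and only the libraries numbered 1 correlated best with their own number. With the replicate block, 0 genes passed at an adjusted p and 1269 at an unadjusted p, while 1 gene (Btbd10) passed for shares, where 250 passed at an unadjusted p.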
